A study of Mus musculus with 10 samples.

Results

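The genes *Cd55*, *Aldh3a1*, *Pde7b*, *Ryr3*, *Sytl4*, *Cped1*, *6530402F18Rik* and *Gm27031* had few or no reads in wildtype O9-1 cells, with the exception of *Cped1*, and were higher in all Ep400 ko clones. They are 8 of 43346 genes in the count table and were chosen by symbol for this difference between the wildtype and Ep400 libraries, so that their levels in these libraries are a description and were not tested. The open point was the Kat5 ko clones, which the choice did not use. Each member had 1 entry in the table, and 7 of the 8 gene identifiers were found in the annotation GENCODE M21.

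O9-1 is a murine line of cranial neural crest cells, the embryonic cells that give rise to much of the facial skeleton. The count table covers polyadenylated RNA from 4 biologically independent wildtype samples (WT), 3 clones with Kat5 ko genotype and 3 clones with Ep400 ko genotype, all grown on Matrigel in preconditioned O9-1 medium. Both genes had been edited with CRISPR/Cas9, and the clones, numbered Kat5/1 to Kat5/3 and Ep400/1 to Ep400/3, were each derived from a single cell. Indels in the Kat5 clones hit all *Kat5* alleles. If the clone numbers of the labels are those of the study's description of alleles, the alleles of Ep400/1 all carried frameshifts, whereas Ep400/2 and Ep400/3 retained alleles with small in-frame deletions in the ATP binding site, more of them in Ep400/2. Each library of a knockout group is thus a different clone, and differences between clones and differences between edited alleles cannot be told apart. The study describes sorting and growth from single cells for the knockout clones only. Knockout and cloning therefore cannot be told apart in a comparison with WT.

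Kat5, also named Tip60, is an acetyltransferase for histones and other proteins. Ep400 is the ATP-dependent remodeler in the same complex and takes part in the incorporation of the histone variant H2A.Z into nucleosomes. Genes without transcripts in a cell type usually lie in chromatin that keeps the transcription machinery away, which is why the loss of a remodeler can be examined through genes that gain transcripts.

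The 8 genes have no common function. Cd55, or decay-accelerating factor, sits on the cell surface and protects cells from complement. Aldh3a1 is an aldehyde dehydrogenase that is abundant in the cornea and can be induced through the aryl hydrocarbon receptor (AhR), and Pde7b is a phosphodiesterase for cAMP. Ryr3 is a ryanodine receptor and releases calcium from the endoplasmic reticulum. Sytl4, or granuphilin, binds Rab27 and docks secretory granules. Cped1 is a little studied protein with cadherin-like and PC-esterase domains. *6530402F18Rik* is annotated as a processed transcript without a protein, and *Gm27031* is a predicted gene whose identifier was not found in the annotation.

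On the assembly GRCm38, the build mm10 to which the authors mapped, the 7 annotated genes lie on 6 chromosomes. *Cd55* occupies positions 130439027 to 130462744 on the minus strand of chromosome 1, *Aldh3a1* lies at 61207537 to 61218421 on the plus strand of chromosome 11 and *Pde7b* at 20398004 to 20725078 on the minus strand of chromosome 10. Chromosome 2 carries *Ryr3* at 112631355 to 113217096 and *6530402F18Rik* at 29245107 to 29253006, both on the minus strand. *Cped1* lies at 21985916 to 22256404 on the plus strand of chromosome 6, and *Sytl4* at 133936385 to 133981812 on the minus strand of chromosome X. The gene spans reach from 7.9 kb for *6530402F18Rik* to 585.7 kb for *Ryr3*.

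RefSeq promoter windows of 300 bases, 250 before and 50 after the start of transcription on GRCm38.p6, were found for 5 of the 8 genes, namely *Cd55*, *Pde7b*, *6530402F18Rik*, *Cped1* and *Sytl4*. The windows of 4 genes are printed here 5′ to 3′ on the strand of the gene, since these genes share high levels in Ep400 clones but start from unlike sequences and since *6530402F18Rik* and *Sytl4* return below with their neighbours. The window of *Pde7b* belongs to a start inside the annotated gene span and is not shown. Capitals mark a GC box or the core of the AhR response element.
Cd55: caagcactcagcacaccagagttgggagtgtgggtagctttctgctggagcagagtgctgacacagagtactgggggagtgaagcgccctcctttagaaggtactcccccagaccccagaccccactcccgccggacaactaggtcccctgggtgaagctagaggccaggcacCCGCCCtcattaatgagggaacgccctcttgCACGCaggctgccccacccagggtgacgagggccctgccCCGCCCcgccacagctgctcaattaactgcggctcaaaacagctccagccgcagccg
Cped1: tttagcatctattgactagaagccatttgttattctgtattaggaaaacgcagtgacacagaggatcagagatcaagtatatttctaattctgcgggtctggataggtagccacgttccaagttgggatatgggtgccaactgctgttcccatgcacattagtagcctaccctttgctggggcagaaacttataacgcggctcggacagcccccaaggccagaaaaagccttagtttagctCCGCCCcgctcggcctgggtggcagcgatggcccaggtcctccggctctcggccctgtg
6530402F18Rik: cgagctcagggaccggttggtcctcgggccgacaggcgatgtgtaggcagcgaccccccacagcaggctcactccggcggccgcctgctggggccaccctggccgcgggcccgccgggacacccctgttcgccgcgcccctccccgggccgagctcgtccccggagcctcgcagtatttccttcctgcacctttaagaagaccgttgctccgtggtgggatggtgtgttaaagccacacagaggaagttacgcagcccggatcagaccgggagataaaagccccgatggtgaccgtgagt
Sytl4: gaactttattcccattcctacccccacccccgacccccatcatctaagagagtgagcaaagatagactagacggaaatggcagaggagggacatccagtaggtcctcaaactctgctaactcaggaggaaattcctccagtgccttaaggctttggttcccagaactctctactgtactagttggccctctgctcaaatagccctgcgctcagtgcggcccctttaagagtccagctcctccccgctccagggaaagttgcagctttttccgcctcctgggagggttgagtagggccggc
The window of *Cd55* is chr1:130462695-130462994 (minus strand), that of *Cped1* chr6:21985660-21985959 (plus strand), that of *6530402F18Rik* chr2:29252944-29253243 (minus strand) and that of *Sytl4* chrX:133981763-133982062 (minus strand).

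The letters searched on both strands were TATAAA for the TATA box, CCAAT for the CCAAT box, GGGCGG for the GC box, GCGTG for the AhR core, CACGTG for the E-box, TGACGTCA for the cAMP response element and TGANTCA for AP-1. Matches in the 5 windows were confined to GC boxes in *Cd55* (2 matches, 77 and 7 bases before the start) and *Cped1* (1 match, 9 bases before the start) and to 1 AhR core in *Cd55*, 46 bases before the start. None of these matches overlapped. Among all 32851 promoter windows, 35.7% held a GC box and 32.4% an AhR core, 13.6% a TATA box, 37.4% a CCAAT box, 7.15% an E-box, 1.79% a cAMP response element and 7.81% an AP-1 motif. A window without a match only lacks these letters.

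CpG dinucleotides numbered 12 in the windows of *Cd55* and *Cped1*, 10 in *Pde7b*, 7 in *Sytl4* and 28 in *6530402F18Rik*. The median over all windows was 7, with quartiles of 3 and 20. The *6530402F18Rik* window thus lay among those rich in CpG (85.8% of windows had fewer), and the other 4 lay between the median and the upper quartile.

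Between 30968945 and 48301792 reads per library were counted on genes, so that 3 counts correspond to 0.0661 to 0.0988 CPM (counts scaled to a common library size) in a library. *Kat5* transcripts were at 22.9, 16.4 and 23.2 CPM in the Kat5 clones and at 48.8 to 57.5 CPM in WT, and *Ep400* transcripts were at 54.7, 61.4 and 59.7 CPM in the Ep400 clones and at 157 to 165 CPM in WT, as the labels require. Of 21 markers of cranial neural crest and mesenchyme, 18 reached 1 CPM in every WT library. The summed level of these 21 markers was 8890 to 10600 CPM in WT, 8290 to 9020 in the Kat5 clones and 10300 to 14200 in the Ep400 clones, where 7 of them passed the test, all higher (8% of 13836 genes tested were higher). Marker sums for other cell types were lower. They reached 0.11 CPM in any library for 8 pluripotency genes (*Pou5f1* at 0 in WT), 8.11 CPM for 10 genes of blood and endothelium, of which 1 fell in Ep400 clones, and 37.1 CPM for 12 epithelial genes (*Cldn4* and *Esrp1* at 0 in WT), of which 2 fell in Ep400 clones. For 11 genes of glia and melanocytes (*Sox10* and *Foxd3* at 0 in WT) the sum was 10.7 to 21.4 CPM in WT, 5.07 to 7 in the Kat5 clones with 1 lower and 16.7 to 31.1 in the Ep400 clones with 1 higher. *Sox10* and *Foxd3* are also markers of the early neural crest and were counted in this list only, so the 21 markers above leave them out. For 10 neuronal genes it was 34.6 to 217 CPM in WT, 10.3 to 256 in the Kat5 clones and 9.73 to 55.1 in the Ep400 clones, where 2 rose, and for 11 muscle genes it was 6.27 to 17 CPM in WT, 1.09 to 686 in the Kat5 clones and 2.65 to 59.6 in the Ep400 clones. Many of the listed genes were too low for the test. Tested in Ep400 clones were 21 markers of crest and mesenchyme, 4 epithelial, 4 neuronal, and 4 of glia and melanocytes. Of the other lists, 2 genes of blood and endothelium, 2 of muscle and 0 of pluripotency were tested there. In Kat5 clones 19, 4, 3, 4, 2, 2 and 0 were tested, in the same order. For all these marker counts, the shares over all genes tested were 8% higher and 5.72% lower in Ep400 clones. In Kat5 clones the shares were 0.179% higher and 0.447% lower. Kat5/1 stood apart from the other Kat5 clones, since leaving it out raised the number of genes past the test between Kat5 and WT from 84 to 2654. The part of other cell types in the levels described next was not tested, and in bulk RNA a gene active in few cells cannot be told apart from a gene weakly active in all.

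Normalized CPM were compared within a gene, and means over clones are given with SD and n = 3. *Cd55* counted 2, 3, 0 and 2 reads in WT/1 to WT/4. The Ep400 clones had 730, 85 and 1464 reads, which are 17.1, 2.66 and 36.4 CPM, with a mean of 18.7 ± 16.9 CPM. In the Kat5 clones there were 517, 0 and 7 reads. *Cd55* was therefore not silent throughout the Kat5 clones, because Kat5/1 with 14.2 CPM exceeded Ep400/2 and reached 76% of the Ep400 mean.

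*Aldh3a1* had 4, 4, 4 and 1 reads in WT and 1, 9 and 3 reads in the Kat5 clones. The Ep400 clones had 1361, 273 and 1666 reads, or 31.9, 8.53 and 41.4 CPM, with a mean of 27.3 ± 16.9 CPM. Per length, *Aldh3a1* was the most strongly expressed of the 7 genes with a known exon length, at 14.1 ± 8.72 CPM per kilobase of exon (RPKM) in the Ep400 clones. No library of WT or Kat5 exceeded 0.297 CPM, and the lowest Ep400 clone was 28.8 times above the highest Kat5 clone.

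*Pde7b* was the most even of the 8 genes among the Ep400 clones, with 629, 510 and 713 reads. These are 14.8, 15.9 and 17.7 CPM, with a mean of 16.1 ± 1.51 CPM and a ratio of 1.2 between the highest and the lowest clone. There were 5, 0, 6 and 7 reads in WT and 19, 0 and 13 in the Kat5 clones. Kat5/1 and Kat5/3 lay above all WT libraries, at 0.523 and 0.286 CPM, and Kat5/2 was at 0.

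For *Ryr3*, 4, 0, 2 and 6 reads were counted in WT and 4, 0 and 2 in the Kat5 clones. The Ep400 clones had 737, 364 and 454 reads, or 17.3, 11.4 and 11.3 CPM (13.3 ± 3.43 CPM). Here the Kat5 clones and WT overlapped fully, with no Kat5 clone above the highest WT library, and the lowest Ep400 clone was 102 times above the highest Kat5 clone. Because *Ryr3* has a long transcript, its level per length was the lowest of the 7 genes, 0.702 ± 0.181 RPKM.

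*Sytl4* had 0 reads in all 4 WT libraries and 7, 0 and 1 reads in the Kat5 clones. In the Ep400 clones 260, 10 and 205 reads were counted, or 6.10, 0.312 and 5.10 CPM (3.84 ± 3.09 CPM). It varied most among the Ep400 clones, with a ratio of 19.5 between the highest and the lowest. Ep400/2 had few reads and lay only 1.62 times above Kat5/1.

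*Cped1* was the exception among the 8, since wildtype cells transcribed it at a low level, with 52, 20, 17 and 96 reads or 1.66, 0.578, 0.443 and 2.12 CPM. In the Ep400 clones 690, 371 and 1314 reads were counted, or 16.2, 11.6 and 32.7 CPM (20.2 ± 11.1 CPM). The Kat5 clones had 3, 0 and 1 reads, which is under the wildtype range in each of them. The term switched on hence applies to *Cped1* less than to the others.

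The noncoding *6530402F18Rik* had 2, 5, 6 and 4 reads in WT and 7, 2 and 9 in the Kat5 clones. In the Ep400 clones there were 375, 155 and 268 reads, or 8.79, 4.84 and 6.67 CPM (6.77 ± 1.98 CPM). *Gm27031* had 1, 0, 0 and 0 reads in WT, 49, 0 and 1 in the Kat5 clones and 204, 171 and 102 in the Ep400 clones. The latter are 4.78, 5.34 and 2.54 CPM, and Kat5/1 with 1.35 CPM reached 32% of their mean. Of the pair, *6530402F18Rik* stayed near the wildtype level in all Kat5 clones and *Gm27031* did so in Kat5/2 and Kat5/3.

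**Figure D1:**
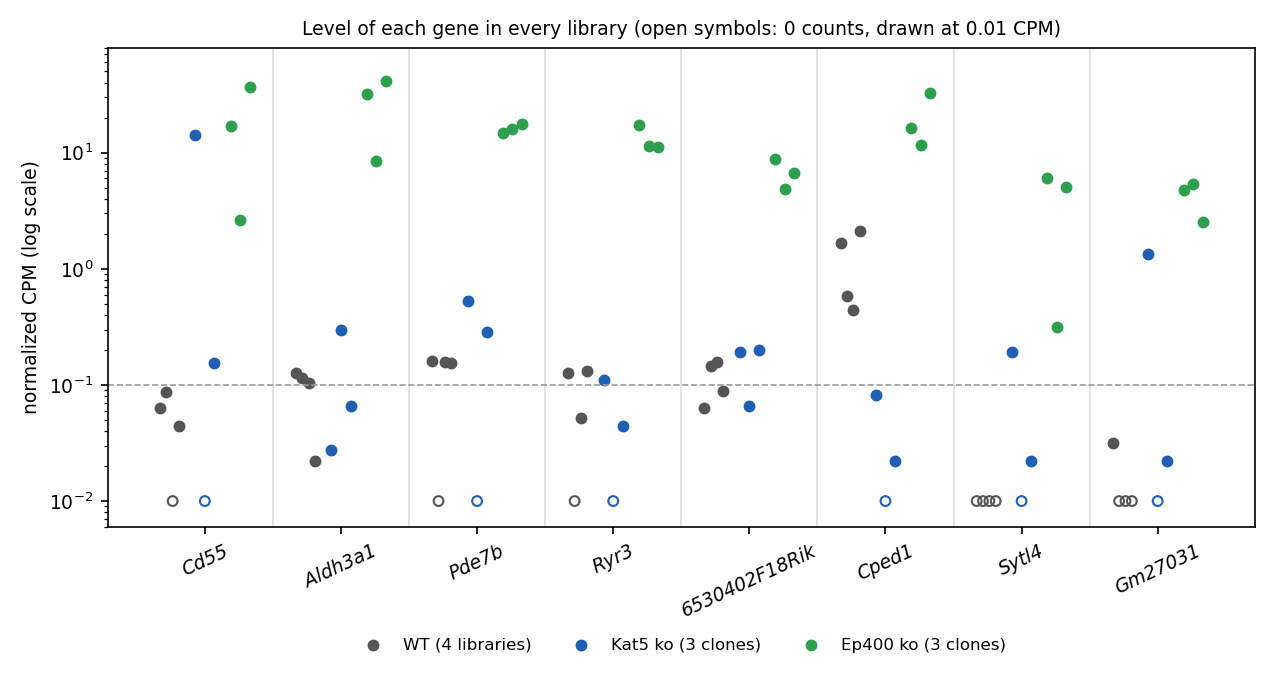
Normalized CPM (logarithmic axis) of each gene in the 4 WT libraries, the 3 Kat5 clones and the 3 Ep400 clones, with clones and samples in numerical order from left to right. Open symbols stand for 0 counts and the dashed line marks 0.1 CPM. Kat5/1 reaches 14.2 CPM for Cd55 and 1.35 CPM for Gm27031, whereas Cped1 is at 0.443 to 2.12 CPM in WT and at 0 to 0.0826 CPM in the Kat5 clones.

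The Ep400 clones lay above all WT libraries for 8 of the 8 genes, by construction of the choice (16.1% of 13836 genes tested did so), and above all Kat5 clones for 7 of the 8 (20.5% of 13587 genes). The exception in the latter case was *Cd55*. From summed counts, the ratio of Ep400 to WT was 330 for *Aldh3a1* (95% counting interval 193 to 621), 424 for *Cd55* (205 to 1060), 169 for *Ryr3* (96.3 to 327) and 134 for *Pde7b* (84.5 to 227). It was smaller for *6530402F18Rik* with 61.1 (37.9 to 105) and for *Cped1* with 16.7 (14.4 to 19.5). For *Sytl4*, Ep400 clones were at least 46.9-fold higher when WT was set at 3 counts per library, and for *Gm27031*, whose WT libraries held 1 read, the ratio was 621 with an interval of 111 to 24600. These exact Poisson intervals cover counting error only and not the spread between clones.

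On the log2 scale of the edgeR model the median difference between Ep400 and WT was 7.77, as against 0.0428 over all 13836 genes tested, and it was 7.19 when *Sytl4* was set at its bound. Single values ranged from 4.06 for *Cped1* to 10.18 for *Sytl4*, the latter resting on 0 reads in WT. Between Ep400 and Kat5 clones the median was 5.74 and rose to 7.78 without Kat5/1. The ratio of summed counts between these groups was 248 for *Aldh3a1* (145 to 465), 253 for *Ryr3* (116 to 690) and 579 for *Cped1* (226 to 2130), but 4.24 for *Cd55* (3.86 to 4.67) and 9.3 for *Gm27031* (6.94 to 12.7). Since Ep400 libraries enter both comparisons and had chosen the genes, neither was tested.

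To see whether Kat5 clones keep the genes silent, Kat5 was tested against WT over all genes. The WT libraries had also been used in the choice of the genes, which favours low WT values. The filter on low counts asks for reads in several libraries and kept 1 of the 8 genes, *Cped1*. *Cd55* and *Gm27031* had nearly all of their Kat5 reads in Kat5/1, and the other 5 had few reads in each of the 7 libraries. For *Cped1* the log2 difference was −4.98 (standard error, SE, 0.986) with an adjusted p of 0.0656, so that 0 of the 8 genes passed and 7 were not tested (background 0.625% of 13434 genes). All 3 Kat5 clones lay below all WT libraries, as did those for 10.2% of all genes tested. The ratio of summed counts was 0.0289 with a counting interval of 0.00778 to 0.0752. *Cped1* passed with DESeq2 (adjusted p = 0.000389), without the filter (0.0291) and without Kat5/1 (0.0162), whereas adjusted p over all 14 alternatives ranged from 0.000389 to 0.192.

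The other 7 genes entered a single model of all 10 libraries, but only through their reads in the Ep400 clones, which had chosen them. The values of this model for Kat5 against WT are therefore a description without a test. Log2 differences were 6.57 for *Cd55* (SE 1.91), 5.50 for *Gm27031* (1.68) and 4.50 for *Sytl4* (2.16). They were 1.19 for *Pde7b*, 0.44 for *Aldh3a1* and *6530402F18Rik*, and −0.55 for *Ryr3*. The values of *Cd55*, *Gm27031* and *Sytl4* were carried by Kat5/1, which held 7 of the 8 Kat5 reads of *Sytl4*. The counting intervals of the Kat5 to WT ratio include 1 for *Aldh3a1* (0.57 to 3.13), *Ryr3* (0.206 to 1.92) and *6530402F18Rik* (0.687 to 2.92). The interval of *Pde7b* (1.29 to 4.49) does not. These intervals cover counting error only and are no test, and *Pde7b* had 19, 0 and 13 reads in Kat5/1 to Kat5/3. For *Cd55* and *Gm27031* the Kat5 clones differed among each other from 0 reads to 517 and 49, so that no common change of the 3 clones can be read from them.

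**Figure D2:**
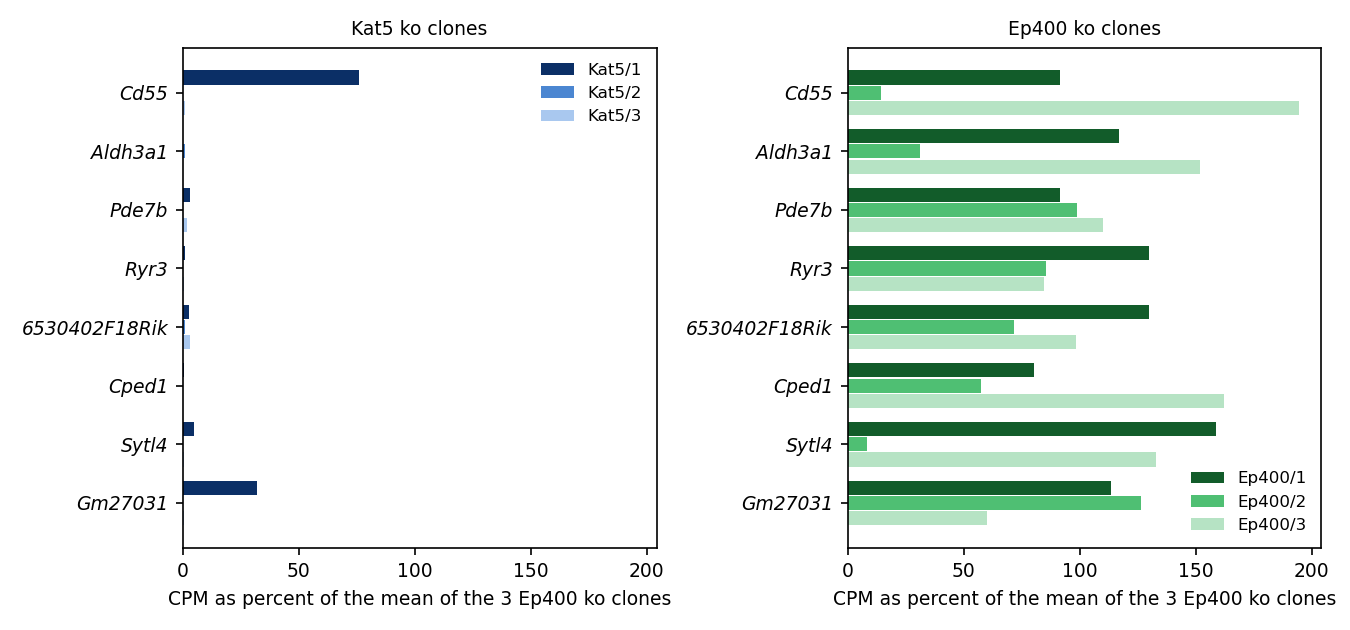
CPM of each gene in the 3 Kat5 clones (left) and in the 3 Ep400 clones (right), as percent of the mean of the Ep400 clones, on the same axis. Bars are single clones without error. Kat5/1 is at 76% for Cd55, 32% for Gm27031 and 5.03% for Sytl4, and Ep400/2 has the lowest bar of the Ep400 clones for 5 of the 8 genes.

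The Kat5 clones were not alike. Kat5/2 had 0 reads for 6 of the 8 genes and none was above 0.286 CPM in Kat5/3. In Kat5/1, *Cd55* and *Gm27031* exceeded 1 CPM, and the level as percent of the Ep400 mean was 5.03 for *Sytl4*, 3.24 for *Pde7b*, 2.85 for *6530402F18Rik*, 0.828 for *Ryr3*, 0.41 for *Cped1* and 0.101 for *Aldh3a1*. Kat5/1 was the highest Kat5 clone for 6 of the 8 genes. It was also the highest for 61.9% of the 784 genes that were at least 2-fold higher in Ep400 clones and passed the test there (5.67% of 13836 genes). Kat5/1 lay above all WT libraries for 5 of the 8 genes and for 42.1% of those 784. For Kat5/2 the figures were 1 gene and 13.9%, and for Kat5/3 4 genes and 23.5%. The 784 genes were called against the same WT libraries, and these shares were not determined over all genes tested. Calls between Kat5 and WT over all genes also hung on other libraries, as 1 gene passed without WT/1 and 1 without WT/4, 33 without WT/3, 56 without WT/2, 4 without Kat5/3 and 37 without Kat5/2.

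Ep400/2 was the lowest Ep400 clone for 5 of the 8 genes, namely *Cd55*, *Aldh3a1*, *6530402F18Rik*, *Cped1* and *Sytl4*. Among the 784 genes it was lowest for 39.5%, Ep400/1 for 39.8% and Ep400/3 for 20.7%. For *Gm27031* Ep400/2 was the highest clone. The ratio between highest and lowest clone was 19.5 for *Sytl4* and 13.7 for *Cd55*, 4.86 for *Aldh3a1* and 2.82 for *Cped1*, and it lay between 1.2 and 2.11 for the other 4 genes. Under the same reading of the clone numbers, Ep400/2 has the most alleles with in-frame deletions. *Ep400* transcripts were at 61.4 CPM there and at 54.7 and 59.7 CPM in the others. A link of the levels to the edited alleles was not tested.

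The 8 genes were then placed among all genes with such a pattern. Under 0.1 CPM in every WT library were 27140 genes, and 9 of them reached 1 CPM in every Ep400 clone. *Cd55* and *Gm27031* belonged to these 9. *Aldh3a1*, *Pde7b*, *Ryr3* and *6530402F18Rik* missed the limit by a few reads in at least 2 WT libraries, *Sytl4* by Ep400/2 and *Cped1* by its WT level. Among the 9 genes, 3 stayed under 0.1 CPM in every Kat5 clone, and these were *Ntng2*, *Gm10419* and *Zswim5*. In Kat5/1 there were 6 of the 9 at 0.1 CPM or more, in Kat5/3 3 and in Kat5/2 0. *Sv2c*, which encodes a synaptic vesicle protein, was at 1.93 CPM in Kat5/1, at 0 in Kat5/2 and Kat5/3 and at 2.34 CPM or more in the Ep400 clones, and thereby resembled *Gm27031*. The other 3 genes were *Hsd11b1*, *Gm12843* and *4921504A21Rik*, with 0.110 to 0.248 CPM in Kat5/1. With Kat5 clones in place of Ep400 clones, 0 genes fulfilled the 2 limits. Without Ep400/2 the 9 genes became 24, without Ep400/1 18 and without WT/3 15, and the number that stayed silent in all Kat5 clones was 6 instead of 3 without Kat5/1.

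Among all genes other than the 8, the profile over the 10 libraries most like the mean profile of the 8 was found for *Sumf1* (Pearson r = 0.9904), *Cntn5* (0.9903), *Klhl13* (0.9858), *Timp2* (0.984) and *Ftl1* (0.9829). The members themselves correlated with the mean of the other 7 at r from 0.787 for *Cped1* to 0.976 for *Ryr3*. These values come from the libraries that had chosen the genes and are descriptive. Unlike the 8, *Sumf1*, *Timp2* and *Ftl1* were well transcribed in WT. *Sumf1*, which activates sulfatases, was at 33.1 ± 2.71 CPM (SD, n = 4) in WT and at 81.6 ± 5.27 CPM in the Ep400 clones. *Timp2*, an inhibitor of metalloproteinases, was at 596 ± 80.1 and 2680 ± 257 CPM, and *Ftl1*, the ferritin light chain, at 1231 ± 120 and 2483 ± 192 CPM. *Cntn5*, a neuronal adhesion protein, had 0 reads in WT and 58, 13 and 39 reads in the Ep400 clones, and *Klhl13* 1, 1, 0 and 0 reads in WT and 26, 13 and 33 in the Ep400 clones. The Kat5 clones held 2, 0 and 0 reads of either gene.

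Some of the 8 genes share bases with other genes. *6530402F18Rik* and *Ntng2*, which encodes netrin G2, lie on the same strand of chromosome 2, start 1 base apart and share 558 exonic bases, 10.1% of the exons of *6530402F18Rik*. Reads in this stretch cannot be assigned to one of them, and the pair may count partly the same transcripts. On the opposite strand, *Cd55* shares 102 exonic bases with *Gm16083*, *Ryr3* 916 with *Aven* and *Cped1* 1137 with *Gm26719*. Libraries were made with a stranded kit, but the strand setting of the counting is not given in the sources used here. The shared bases amounted to 2.1%, 4.8% and 13.7% of the exons of the 3 genes. *Aven* did not pass the test in Ep400 clones (log2 difference 0.56, SE 0.219, adjusted p = 0.116).

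The neighbours of the annotated genes were examined next, with gene starts within 500 kb of the start of one of the 7. Of 44 neighbours tested in Ep400 clones, 5 were higher and 1 was lower, which is 13.6% against a background of 13.7% of 13836 genes. Of the 14 within 250 kb, 4 were higher and 1 was lower (35.7%), and of the 117 within 1000 kb, 10 were higher and 9 lower (16.2%). The 3 that were more than 2-fold higher within 500 kb, *Ntng2*, *Srpx2* and *Tspan6*, all lay within 250 kb and beside 2 of the genes, *6530402F18Rik* and *Sytl4*. *Ntng2* had 1, 1, 2 and 1 reads in WT, 0 reads in each Kat5 clone and 114, 77 and 244 reads in the Ep400 clones, and differed from WT by 6.66 on the log2 scale (SE 0.576, adjusted p = 0.0012). Its start falls in the window printed above for *6530402F18Rik*. *Srpx2*, which encodes a secreted sushi-repeat protein, ends 3.94 kb from the 3′ end of *Sytl4* and is transcribed towards it. It had 5, 1, 5 and 7 reads in WT, 5, 0 and 2 in the Kat5 clones and 386, 174 and 286 in the Ep400 clones (log2 difference 5.88, SE 0.506, adjusted p = 0.0012). Both passed in all 7 analyses with 1 library left out and in all 7 other settings. *Ntng2* may count partly the same transcripts as *6530402F18Rik*, which was chosen for its difference between WT and Ep400 libraries. The p-value of *Ntng2* and its place among the neighbours counted are therefore not independent of that choice.

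*Tspan6*, a tetraspanin 37.96 kb from *Sytl4*, had 33, 60, 15 and 43 reads in WT and 269, 103 and 302 in the Ep400 clones (log2 difference 2.46, SE 0.516, adjusted p = 0.0185). It did not pass without WT/1 or without WT/4, in the single model or with a replicate block. In the Kat5 clones it had 379, 2 and 23 reads, and Kat5/1 with 10.4 CPM lay above all other libraries. The other 3 neighbours past the test changed less than 2-fold and were named after their values had been seen: *Ing3*, itself a subunit of the Tip60 complex and 9.88 kb upstream of *Cped1*, and *Natd1* near *Aldh3a1* were higher, and *Usp22* near *Aldh3a1* was lower. In Kat5 clones 0 of 41 neighbours passed with edgeR, 13 had an unadjusted p under 0.05 and 7 passed with DESeq2.

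Further genes beside *Cd55*, *Aldh3a1* and *Cped1* were also named after their values had been seen. *Gm15675*, a long noncoding RNA gene 1.84 kb beyond the 3′ end of *Cd55* on the same strand, had 0, 1, 0 and 0 reads in WT, 21, 0 and 0 in the Kat5 clones and 54, 5 and 254 in the Ep400 clones. It thus had the same order of clones as *Cd55*, with Kat5/1 above Ep400/2, and was too low for the test in either comparison. The paralog *Daf2* (also named *Cd55b*) had 0 reads in all 10 libraries. *Aldh3a2*, a paralog 5 kb from *Aldh3a1*, was at 33.7 ± 4.04 CPM (SD, n = 4) in WT and 46.9 ± 9.79 CPM in the Ep400 clones and did not pass (log2 difference 0.47, SE 0.177, adjusted p = 0.105). *Wnt16*, beside *Cped1*, had 0 reads in WT and the Kat5 clones and 1, 4 and 101 reads in the Ep400 clones. The neighbours of *Pde7b*, *Ryr3* and *Cd55* that could be tested, 3, 1 and 3, held none that passed.

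**Figure D3:**
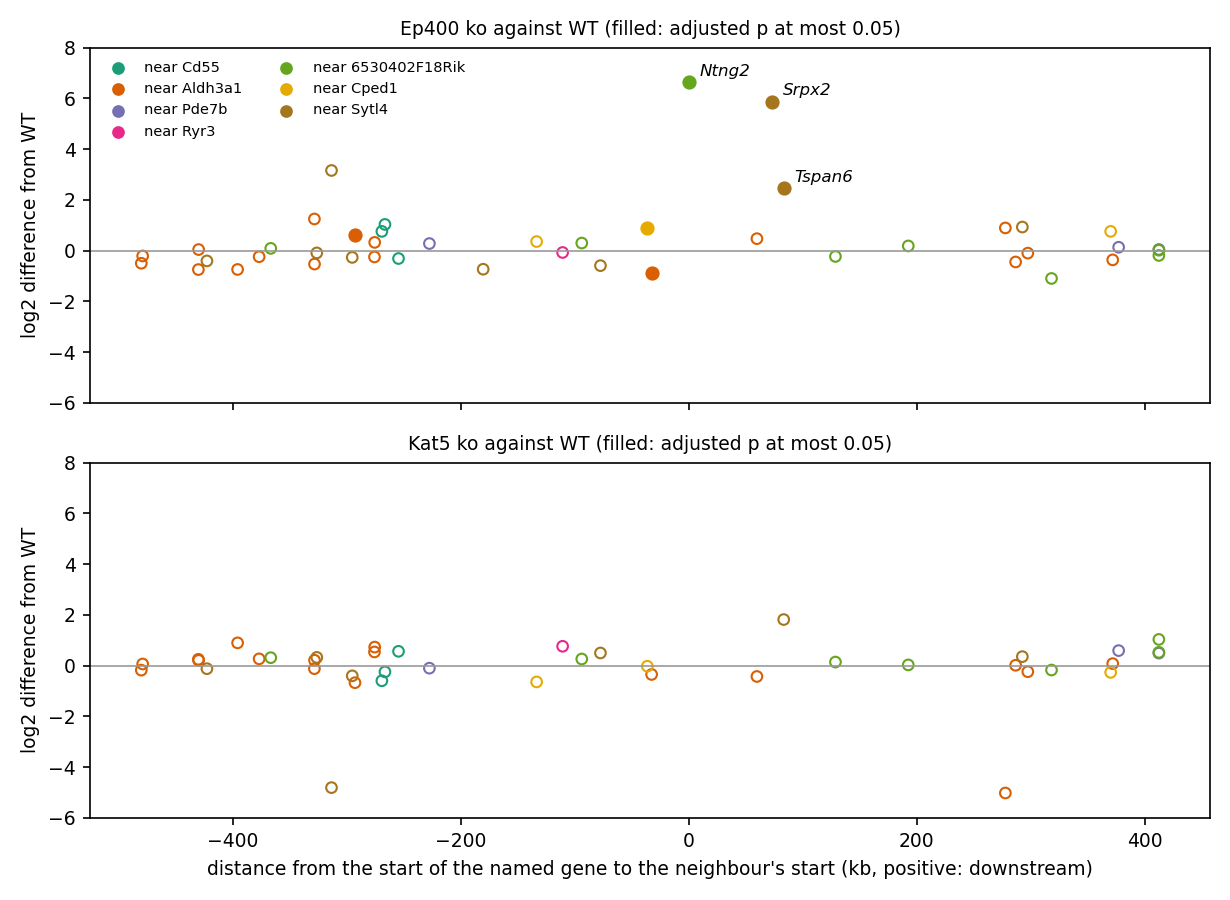
Log2 difference from WT of the neighbours tested, against the distance between gene starts (kb, positive values lie downstream), for Ep400 clones (top) and Kat5 clones (bottom). Colours give the gene they neighbour and filled points have an adjusted p of at most 0.05. In Ep400 clones Ntng2 (6.66), Srpx2 (5.88) and Tspan6 (2.46) stand above the rest, and no point is filled for the Kat5 clones.

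Levels over entire chromosomes were described as well. On the 6 chromosomes, the median over genes of the log2 difference between a library and the WT mean lay between −0.249 (chromosome X in Ep400/1) and 0.164 (chromosome 2 in Kat5/1). On chromosome 1, which carries *Cd55*, it was −0.235 in Kat5/1. Such a median does not show a change confined to part of a chromosome, and copy number was not tested. The study describes O9-1 cells as tetraploid.

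Paralogs and partners of the 8 genes were examined in 6 lists without members. Over all genes tested, 8% were higher and 5.72% lower in Ep400 clones, and 0.179% were higher and 0.447% lower in Kat5 clones. In Ep400 clones 2 of 16 aldehyde dehydrogenase genes were higher and 3 lower, and the list median was 0.46 against 0.0428 over all genes tested. *Aldh1a1*, which makes retinoic acid, was at 0.337 ± 0.0837 CPM (SD, n = 4) in WT and at 6.42, 1.59 and 2.84 CPM in the Ep400 clones (log2 difference 3.42, adjusted p = 0.00713), and *Aldh1b1* rose as well (2.90, 0.0347). The folate enzyme *Aldh1l2* (−2.89, 0.0125) and *Aldh18a1* of proline synthesis (−2.0, 0.00369) fell. *Aldh1a1* did not pass in the single model or with a replicate block, and *Aldh1b1* passed in 1 of 7 analyses with 1 library left out. In Kat5 clones 2 of 15 were lower, *Aldh1l2* (−3.27, adjusted p = 0.0434) and *Aldh3b1* (−2.46, 0.0493), and 0 were higher. *Aldh1a1* was at 0.165, 0.033 and 2.36 CPM in Kat5/1 to Kat5/3 and did not pass (log2 difference 1.32, SE 1.04, adjusted p = 0.489). Its level in Kat5/3 lay above all WT libraries and above Ep400/2.

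Of 9 genes around the AhR, 2 were higher in Ep400 clones and 0 lower, with a list median of 1.42. *Ahr* itself was at 21.98 to 78.1 CPM in WT and at 121.7, 101.4 and 173.7 CPM in the Ep400 clones (log2 difference 1.42, SE 0.375, adjusted p = 0.0403). The glutathione transferase gene *Gsta1* rose by 2.55 (SE 0.693, adjusted p = 0.0431) from a low level. *Cyp1b1* had a larger difference of 3.19 (SE 1.12) and did not pass (adjusted p = 0.0909), and neither did *Nqo1* (1.01, 0.062) or *Cyp1a1* (2.01, 0.282). *Ahr* passed in 2 and *Gsta1* in 1 of 7 analyses with 1 library left out. In Kat5 clones 0 of 7 passed with edgeR, at unadjusted p under 0.05 or with DESeq2.

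Of the 13 complement genes considered and tested in Ep400 clones, 0 passed with edgeR, 3 had an unadjusted p under 0.05 and 1 passed with DESeq2, with a list median of 0.80. These counts cover only the genes considered and are no statement on the whole complement system. The membrane regulators *Cd46* (0.04, adjusted p = 0.975), *Cr1l* (0.44, 0.114) and *Cd59a* (0.90, 0.542) did not pass. In Kat5 clones 0 of 12 passed with edgeR, 1 had an unadjusted p under 0.05 and 1 passed with DESeq2.

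Of 16 phosphodiesterase genes 3 were higher in Ep400 clones and 0 lower. *Pde8b*, which like Pde7b cleaves cAMP, was at 1.76, 0.896, 0.756 and 1.92 CPM in WT, at 12.3, 0.857 and 3.77 CPM in the Kat5 clones and at 67.3, 12.7 and 41.4 CPM in the Ep400 clones (log2 difference 4.92, SE 0.591, adjusted p = 0.00337), and passed in all alternatives run. *Pde8a* (3.70, SE 1.03, adjusted p = 0.0472) passed in 1 of 7 analyses with 1 library left out, and *Pde3b* rose less than 2-fold (0.76, adjusted p = 0.0213). The closest paralog of *Pde7b*, *Pde7a*, did not pass (−0.54, adjusted p = 0.0813). In Kat5 clones 1 of 12 passed, *Pde1b*, which was lower (−3.78, adjusted p = 0.0434).

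Genes of calcium release gave 0 of 19 past the test in Ep400 clones with edgeR, 6 at an unadjusted p under 0.05 and 2 with DESeq2. *Ryr1* and *Ryr2* were too low to be tested, and *Itpr1*, *Itpr2* and *Itpr3*, which encode the other family of release channels, differed by −0.41, −0.71 and −0.01 (adjusted p = 0.146, 0.174 and 0.975). None of the relatives of *Ryr3* that could be tested therefore passed. In Kat5 clones the calcium pump gene *Atp2a3* was lower (−7.25, SE 1.23, adjusted p = 0.0493), the 1 of 18 that passed. Of 13 genes considered for synaptotagmin-like proteins and Rab27 exocytosis, 0 passed in Ep400 clones with edgeR, 5 had an unadjusted p under 0.05 and 4 passed with DESeq2. In Kat5 clones 1 of 13 was lower, *Rab3d* (−2.40, SE 0.3, adjusted p = 0.0218). *Rab27a*, the partner of Sytl4, differed by 1.71 in Ep400 clones (adjusted p = 0.133) and *Sytl2* by 1.34 (0.0825), and neither passed. The Kat5 calls of these lists depended on single libraries, as 0 of the 5 remained past the test without WT/1, WT/4, Kat5/2 or Kat5/3.

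**Figure D4:**
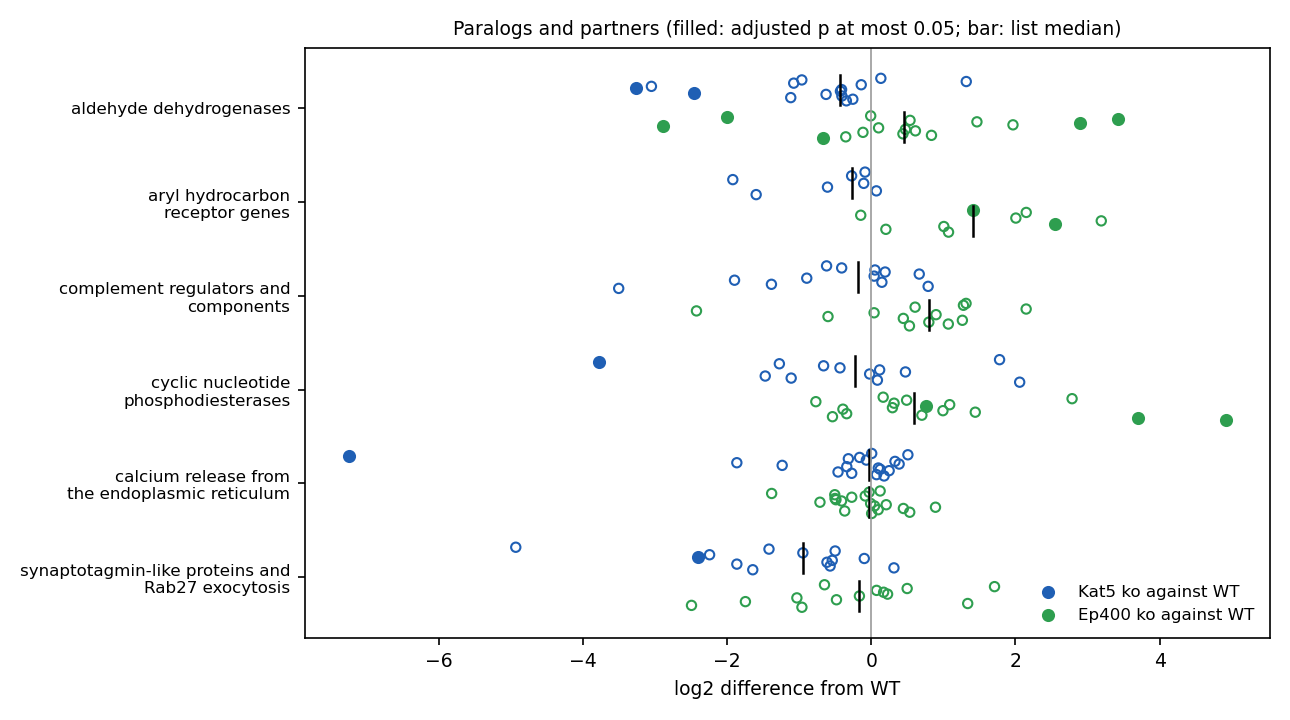
Log2 difference from WT of the tested genes in 6 lists, for Kat5 clones (blue) and Ep400 clones (green). Filled points have an adjusted p of at most 0.05 and the vertical bars are list medians. Pde8b at 4.92 and Pde8a at 3.70 lie farthest to the right, the filled points of the Kat5 clones all lie below 0, and the lists of complement, calcium release and Rab27 exocytosis have no filled point for Ep400 among the genes considered.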

How the data were processed

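RNA of 10 libraries, 4 wildtype samples and 3 clones per knockout, was examined. The authors made stranded poly-A libraries, read both fragment ends on a NovaSeq and aligned to mm10. The submitters' processing notes name bcl2fastq 2.20, STAR 2.7.3, R 4.2.1 and DESeq2 1.36.0. The deposited raw counts are whole numbers of reads per gene, whereas the counting program, its strand setting and the annotation are not given in the sources used here. The tables of normalized counts that the authors deposited for each knockout hold the same libraries and were not used.

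Samples were grouped by their labels. The 8 genes, the lists of related genes and markers and the tests were chosen with earlier results of these data known. Versions were edgeR 4.0.16, DESeq2 1.42.0 and limma 3.58.1 under R 4.3.3. For each comparison, genes were filtered with filterByExpr over all 43346 genes, scaled by TMM and compared by the quasi-likelihood test of edgeR (robust estimation) and Benjamini-Hochberg adjustment over all genes tested. A gene passed with an adjusted p of at most 0.05. Normalized CPM used TMM factors of all 10 libraries, and RPKM divided them by the exon length in GENCODE M21 (GRCm38), where 42462 identifiers were found. Promoter windows came from RefSeq. Correlations used log2 CPM with a prior count of 2. Depth was 30968945 to 48301792 counts per library, and p-values measure the spread between clones and between wildtype samples.

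Named were the 8 genes, neighbours within 500 kb and list genes past the test with an absolute log2 difference of at least 1 (up to 4 per list), the 5 genes with the most similar profile, and *Kat5* and *Ep400*. Some genes are not reported here, and the lists, their counts and their medians leave them out whether or not they passed. List genes named without having passed were picked after their values had been seen. Same-numbered libraries did not deviate together (correlation −0.0957 to 0.223 over 9 pairs), so a replicate block was used as an alternative only. Other alternatives were DESeq2, other normalizations, no filter, a single model, each library left out, other windows and limits and, added after values had been seen, edgeR without robust estimation. The edgeR procedure was tested on simulated data.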

Additional observations from a re-analysis of the deposited data

Results flagged for a closer look

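Of 18 genes checked for a wildtype library far from the other 3, 5 stood out by Dixon's ratio of gap to range against its 95% critical value. The rate of about 1 in 20 that belongs to this value presumes continuous, normally spread values and does not hold for genes with few reads. The ratios are therefore a description, and *Pde7b* and *Gm27031* had also been chosen for low WT values. *Pde7b* had a ratio of 0.968, as WT/2 held 0 reads and the others 5, 6 and 7. For *Gm27031* and *Gm15675* the ratio was 1, because 1 read in WT/1 and 1 read in WT/2 were the only ones. Any gene with reads in a single wildtype library has this ratio. *Aldh3a2* gave 0.856, with WT/3 at 39.7 CPM above the rest, and *Timp2* 0.861, with WT/3 at 476.9 CPM below the rest. No explanation of these values was tested.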

How the results depend on the processing

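The median log2 difference of the 8 genes from WT in Ep400 clones kept its direction under the alternatives run and lay between 7.52 and 8.0 with 1 library left out, as against 5.21 to 7.78 between Ep400 and Kat5 clones. Without WT/1, which held the 1 wildtype read of *Gm27031*, its value was 10.36 instead of 8.71. Of the 8 genes, of which 1 was tested, 0 passed between Kat5 and WT, and 1 did with DESeq2, 1 without the filter and 0 to 1 with 1 library left out, *Cped1* in each case. Over all genes, 84 passed there with edgeR, 1489 with DESeq2, 286 without the filter, 27 in the single model, 0 with a replicate block and 1 to 2654 with 1 library left out. In the related lists, 5 genes passed in Kat5 clones, and this became 17 with DESeq2, 3 with library size alone, 2 in the single model and 0 to 16 with 1 library left out. In Ep400 clones 10 became 23 with DESeq2, 6 in the single model and 4 to 11 with 1 library left out. Of the neighbours, 0 passed in Kat5 clones, and 7 did with DESeq2, 1 without the filter and 0 to 9 with 1 library left out. In Ep400 clones 6 of 44 became 11 with DESeq2, 5 of 14 within 250 kb (35.7%), 19 of 117 within 1000 kb (16.2%) and 2 to 8 with 1 library left out. The 9 genes silent in WT and on in Ep400 clones, 3 of them silent in the Kat5 clones, became 59 and 33 with limits of 0.2 and 0.5 CPM, 2 and 0 with limits of 0.05 and 2 CPM, and 9 to 24 and 3 to 11 with 1 library left out. The 5 most similar genes shared 4 with those found at a prior count of 0.5. The cause of these changes was not tested.

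With a replicate block, list genes past the test fell to 0 in Kat5 and 3 in Ep400 clones and neighbours to 2 in Ep400 clones, while the median of the 8 genes was 7.76. The numbers do not pair the libraries, so the lost calls are no measure of the effect. edgeR without robust estimation was chosen after seeing the data and called 67 genes between Kat5 and WT. With 3 counts at 0.0661 to 0.0988 CPM, depth limits what can be said on 5 of the 7 genes that the filter removed in Kat5 clones, while for *Cd55* and *Gm27031* the spread between clones does.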
